A study of Mus musculus with 9 samples.

Results

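The genes described here are targets of the transcription factor p53 that act in cell death, chosen by name from a list of 10: Bax, Bbc3, Pmaip1, Fas, Tnfrsf10b, Eda2r, Perp, Apaf1, Aen and Phlda3. A gene counted as measured when a probe set row carried its symbol alone, which held for 9 of the 10, with 1 row each, out of 19938 genes tested on the array. Bax is not analysed here. The cells were immortalized mouse embryonic fibroblasts of ICR background. Every culture received an adenovirus (1e8 pfu per ml) over 2 h. Growth in serum-containing medium (10%, 37 °C) followed for 70 h, and labelling started from 200 ng of total RNA. The virus encoded an shRNA against RPA1, an shRNA against HSF1 or a control shRNA whose sample names read scr, with 3 Affymetrix Mouse Gene 1.0 ST arrays per group. RPA1 is the large subunit of the complex that coats single-stranded DNA during replication and repair, and HSF1 is the main transcription factor of the heat shock response. The question of the study was if HSF1 acts on gene expression together with RPA, and the p53 targets were read for each knockdown against the control and for the knockdowns against each other.

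p53 is a transcription factor that accumulates after DNA damage and other stresses, and its targets either halt the cell cycle or promote cell death. The death targets work at different points. Fas and Tnfrsf10b encode death receptors at the cell surface, and Eda2r encodes a related receptor for an isoform of ectodysplasin. Bbc3 and Pmaip1 encode PUMA and NOXA, BH3-only proteins that bind survival members of the BCL2 family at mitochondria. Apaf1 encodes the scaffold on which cytochrome c assembles the apoptosome, Perp encodes a membrane protein of desmosomes that p53 induces during apoptosis, Aen encodes a nuclease and Phlda3 encodes a repressor of the kinase Akt.

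The arrays, the deposited values and the knockdown were checked first. Values are log2 signals, 1 per probe set and array, and the median signal of an array over all rows lay between 7.72 and 7.81. Rpa1 read 9.42, 9.34 and 9.40 in the RPA1 shRNA arrays, 11.35, 11.33 and 11.30 in the HSF1 shRNA arrays and 11.40, 11.42 and 11.41 in the control arrays. It fell by 2.02 ± 0.04 on the log2 scale under RPA1 shRNA (± standard error, limma adjusted p = 3.53e-08, n = 3 arrays per group), whereas the level of Hsf1 is not analysed here. Fibroblast markers were present, with Vim between 14.01 and 14.16 on the 9 arrays, and the collagen gene Col1a1 read 12.47, 12.23 and 12.71 in the RPA1 shRNA arrays, 12.94, 12.98 and 12.94 in the HSF1 shRNA arrays and 13.06, 13.05 and 12.98 in the control arrays. Nothing in the labels tells if arrays of 1 group were hybridised with RNA of separate cultures, so p-values measure only the spread between these samples, which may be technical.

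Promoter sequence was available for 7 of the 10 genes (10 promoters in RefSeq, build GRCm38.p6, from 250 bases before to 50 bases after a start). Those of Eda2r, Aen and Fas are shown because Eda2r had the largest rise described below and the promoters of Aen and Fas hold the motif letters searched for. Capitals mark the p53 consensus decamer in Aen and the heat shock element core GAANNTTC in Fas, both searched on both strands, and Eda2r has neither. The windows are chrX:97377160-97377459 (minus strand) for Eda2r, chr7:78895677-78895976 (plus strand) for Aen and chr19:34290409-34290708 (plus strand) for Fas, written 5′ to 3′.
Eda2r: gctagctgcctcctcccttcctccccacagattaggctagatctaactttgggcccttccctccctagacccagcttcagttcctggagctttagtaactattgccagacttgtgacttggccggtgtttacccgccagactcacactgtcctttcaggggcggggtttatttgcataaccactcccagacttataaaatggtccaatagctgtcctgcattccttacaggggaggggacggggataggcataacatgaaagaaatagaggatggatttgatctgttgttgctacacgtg
Aen: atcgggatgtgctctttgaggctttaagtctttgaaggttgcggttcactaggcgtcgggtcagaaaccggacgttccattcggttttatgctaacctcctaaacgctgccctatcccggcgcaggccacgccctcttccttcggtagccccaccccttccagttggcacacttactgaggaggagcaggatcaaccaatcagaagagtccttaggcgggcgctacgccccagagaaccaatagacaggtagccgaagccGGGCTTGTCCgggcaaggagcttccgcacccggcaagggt
Fas: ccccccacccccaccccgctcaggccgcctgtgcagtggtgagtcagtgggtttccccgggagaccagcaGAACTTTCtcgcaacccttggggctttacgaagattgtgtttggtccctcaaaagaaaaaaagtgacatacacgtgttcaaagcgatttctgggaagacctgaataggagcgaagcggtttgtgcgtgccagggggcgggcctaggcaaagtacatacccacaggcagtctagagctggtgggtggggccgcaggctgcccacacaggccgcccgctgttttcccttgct

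The p53 consensus decamer was found in 2 of the 7 genes, Bax and Aen, which is 3 of the 10 promoters because both promoters of Aen hold the same letters. Over all 32851 promoters of that length, 8.36% hold it. The decamer of Aen began at base 11, counting from 1 at the start, and that of Bax at base -201. The full p53 site, which consists of 2 such decamers at most 13 bases apart, was found in 0 of the 10 promoters and in 0.0731% of all. The heat shock core of Fas began at base -180, and 7.86% of all promoters hold that core. These matches are a description of letters in a 300-base window and were not tested for binding.

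Under RPA1 shRNA the death targets of p53 were higher. Of the 9 measured genes 8 rose and 0 fell against the control (limma, Benjamini-Hochberg adjusted p under 0.05), where 15.4% of all 19938 genes were called higher and 14.7% lower. Their differences ran from -0.001 for Bbc3 to 2.04 for Eda2r, with a median of 0.41, against a median of 0.02 over all genes. In the same 8 genes every RPA1 shRNA array lay above every control array, a separation seen in 21.9% of all genes. The 4 with the largest rises were the receptor gene Eda2r, the membrane protein gene Perp, the nuclease gene Aen and the Akt repressor gene Phlda3.

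**Figure D1:**
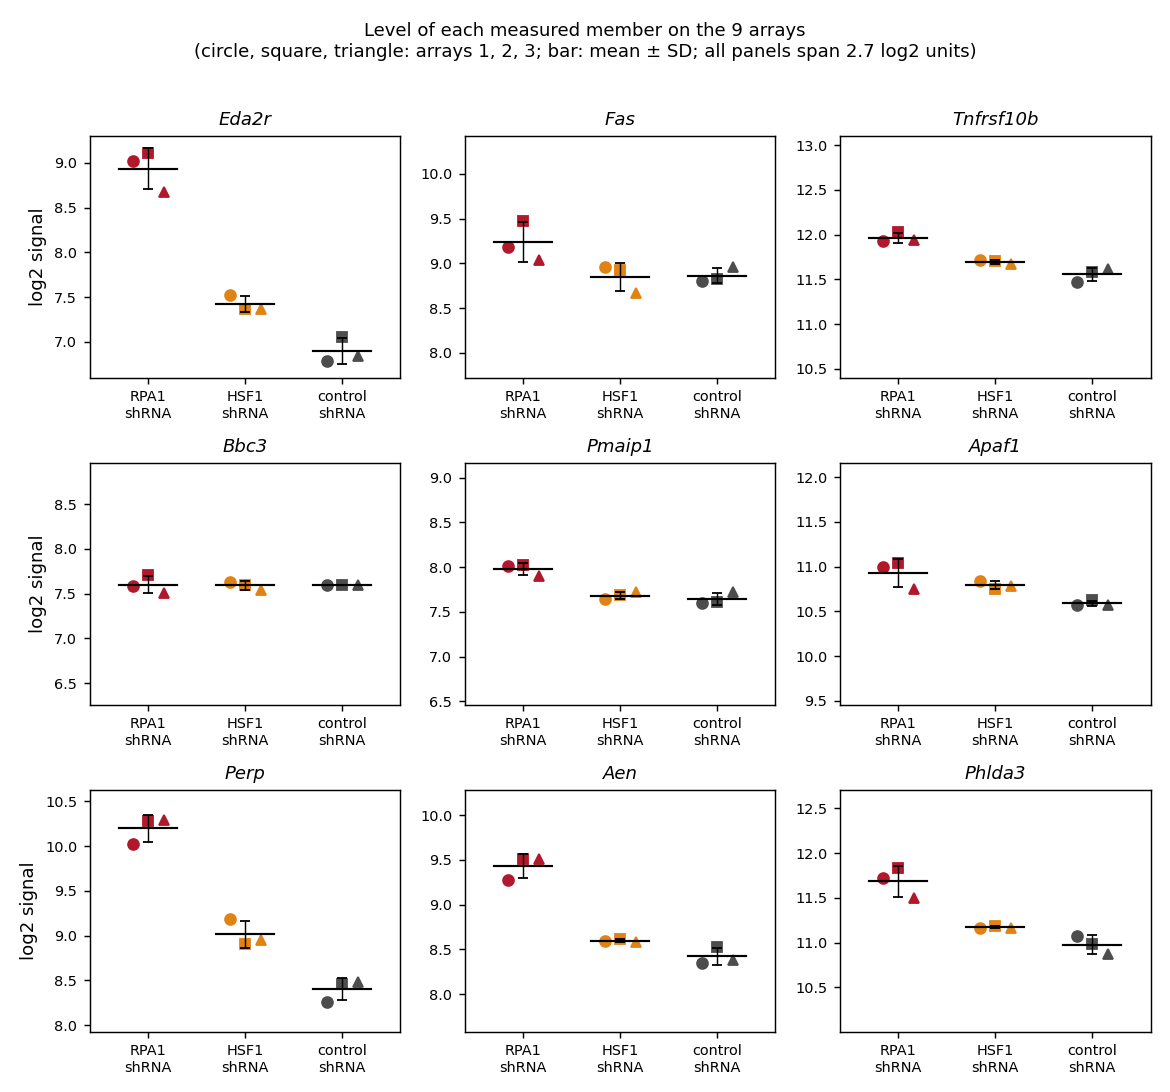
Log2 signal of each of the 9 measured genes (1 panel per gene, all panels spanning the same height) on the RPA1 shRNA, HSF1 shRNA and control shRNA arrays, with array 1 as a circle, array 2 as a square, array 3 as a triangle, and a bar for the mean ± SD (n = 3). Eda2r and Perp step down from RPA1 shRNA over HSF1 shRNA to control without overlap, as do Tnfrsf10b, Aen and Phlda3 by smaller steps. Bbc3 averages 7.60 under RPA1 shRNA, 7.59 under HSF1 shRNA and 7.60 in the control.

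Among the receptors, Eda2r (probe set 10605874) read 9.02, 9.11 and 8.67 in the RPA1 shRNA arrays, 7.52, 7.36 and 7.37 in the HSF1 shRNA arrays and 6.79, 7.06 and 6.84 in the control arrays. The 3 groups did not overlap. It was 4.11-fold higher under RPA1 shRNA than in the control (log2 2.04 ± 0.11, limma adjusted p = 4.71e-06), rank 13 of 19938 genes ordered by rise. Under HSF1 shRNA it was 1.44-fold higher than in the control (0.52 ± 0.11, adjusted p = 0.0134), a call that was lost without HSF1 shRNA array 1 (adjusted p = 0.0525), without control array 1 (0.0585) and without control array 3 (0.0562). The excess of RPA1 shRNA over HSF1 shRNA was 1.52 ± 0.11 (adjusted p = 7.8e-05). Its RefSeq promoter, printed above, has none of the searched motifs.

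Tnfrsf10b (probe set 10416230), the mouse gene for the death receptor that binds TRAIL, read 11.93, 12.03 and 11.94 in the RPA1 shRNA arrays, 11.71, 11.70 and 11.67 in the HSF1 shRNA arrays and 11.47, 11.58 and 11.61 in the control arrays. Each knockdown lay above the control on every array, but by less than the receptor gene Eda2r. The rise under RPA1 shRNA was 1.33-fold (log2 0.41 ± 0.05, limma adjusted p = 0.000412). Under HSF1 shRNA the difference from the control was 0.14 ± 0.05 and did not pass (adjusted p = 0.125), and RPA1 shRNA exceeded HSF1 shRNA by 0.27 ± 0.05 (adjusted p = 0.00551).

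Fas (probe set 10462603) read 9.19, 9.48 and 9.04 in the RPA1 shRNA arrays, 8.96, 8.93 and 8.67 in the HSF1 shRNA arrays and 8.81, 8.82 and 8.96 in the control arrays. The RPA1 shRNA arrays were the highest, though array 3 stood only just above the control's highest array, and the HSF1 shRNA and control arrays overlapped. The rise under RPA1 shRNA was 1.3-fold (log2 0.38 ± 0.11, limma adjusted p = 0.0323), the least secure of the 8 calls: the adjusted p was 0.0631 without RPA1 shRNA array 1, 0.0926 without array 2, 0.101 without control array 1 and 0.0996 without control array 2. The difference under HSF1 shRNA was -0.01 ± 0.11 (adjusted p = 0.965), with a 95% interval from -0.27 to 0.24. RPA1 shRNA exceeded HSF1 shRNA by 0.39 ± 0.11 (adjusted p = 0.0344). That call was lost when any 1 of 7 arrays was left out, with an adjusted p of 0.0514 to 0.115, and held without RPA1 shRNA array 3 and without control array 3.

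The BH3-only genes differed from each other. Pmaip1 (probe set 10456357), the NOXA gene, read 8.01, 8.03 and 7.90 in the RPA1 shRNA arrays, 7.65, 7.68 and 7.72 in the HSF1 shRNA arrays and 7.60, 7.62 and 7.72 in the control arrays. Only the RPA1 shRNA arrays stood apart from the other 6. The rise was 1.26-fold over the control (log2 0.34 ± 0.05, limma adjusted p = 0.0014) and 0.30 ± 0.05 over HSF1 shRNA (adjusted p = 0.0042). Under HSF1 shRNA the difference from the control was 0.04 ± 0.05 (adjusted p = 0.703).

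Bbc3 (probe set 10550290), the PUMA gene, read 7.58, 7.70 and 7.51 in the RPA1 shRNA arrays, 7.64, 7.60 and 7.54 in the HSF1 shRNA arrays and 7.60 in each of the 3 control arrays. All groups overlapped. The difference from the control was -0.001 ± 0.06 under RPA1 shRNA (limma adjusted p = 0.994, 95% interval -0.13 to 0.13) and -0.01 ± 0.06 under HSF1 shRNA (adjusted p = 0.945, interval -0.14 to 0.12). RPA1 shRNA and HSF1 shRNA differed by 0.01 ± 0.06 (adjusted p = 0.947). The upper bound for RPA1 shRNA lies below the difference measured for each of the other 8 genes in that comparison. The 3 control values are exactly equal in the deposited table, which occurs in 1.77% of all genes, so the control SD of this gene is 0. Equal values on 2 or more arrays occur in 44.9% of all genes and in 4 of the 9 genes described here.

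Apaf1 (probe set 10371846), the apoptosome scaffold, read 11.00, 11.04 and 10.75 in the RPA1 shRNA arrays, 10.84, 10.75 and 10.79 in the HSF1 shRNA arrays and 10.58, 10.62 and 10.57 in the control arrays. All 6 knockdown arrays lay above the 3 control arrays, and the knockdowns overlapped each other. The rise under RPA1 shRNA was 1.27-fold (log2 0.34 ± 0.07, limma adjusted p = 0.0069). Under HSF1 shRNA the difference was 0.20 ± 0.07 and did not pass (adjusted p = 0.105), although it passed without RPA1 shRNA array 3 (adjusted p = 0.0102), with array weights (0.0139) and with only the 6 arrays compared (0.0144). The knockdowns differed by 0.14 ± 0.07 (adjusted p = 0.224, 95% interval -0.03 to 0.31). Without RPA1 shRNA array 3 that difference was 0.23 and passed (adjusted p = 0.00583), as it did with array weights (0.00447).

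Perp (probe set 10361887) read 10.03, 10.28 and 10.29 in the RPA1 shRNA arrays, 9.19, 8.91 and 8.95 in the HSF1 shRNA arrays and 8.26, 8.46 and 8.48 in the control arrays. The 3 groups did not overlap, in the same order as for Eda2r. It was 3.48-fold higher under RPA1 shRNA than in the control (log2 1.80 ± 0.10, limma adjusted p = 4.71e-06), rank 24 among all genes by rise. Under HSF1 shRNA it was 1.53-fold higher than in the control (0.62 ± 0.10, adjusted p = 0.00347), a call that held without any 1 of the 9 arrays (adjusted p at most 0.018). Against HSF1 shRNA, RPA1 shRNA was higher by 1.18 ± 0.10 (adjusted p = 0.000114).

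Aen (probe set 10554233), whose promoter holds the p53 decamer printed above, read 9.28, 9.51 and 9.50 in the RPA1 shRNA arrays, 8.60, 8.61 and 8.58 in the HSF1 shRNA arrays and 8.35, 8.53 and 8.38 in the control arrays. The HSF1 shRNA arrays lay close together and just above the highest control array. The rise under RPA1 shRNA was 2.01-fold (log2 1.01 ± 0.07, limma adjusted p = 1.73e-05). Under HSF1 shRNA the difference was 0.17 ± 0.07 (adjusted p = 0.151), and RPA1 shRNA exceeded HSF1 shRNA by 0.84 ± 0.07 (adjusted p = 0.000133).

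Phlda3 (probe set 10350146) read 11.73, 11.84 and 11.50 in the RPA1 shRNA arrays, 11.17, 11.19 and 11.17 in the HSF1 shRNA arrays and 11.08, 10.98 and 10.87 in the control arrays. The groups did not overlap. The rise under RPA1 shRNA was 1.64-fold (log2 0.71 ± 0.09, limma adjusted p = 0.000261). Under HSF1 shRNA the difference was 0.20 ± 0.09 (adjusted p = 0.163), which passed without RPA1 shRNA array 3 (adjusted p = 0.0415), with array weights (0.0258) and with only the 6 arrays compared (0.0471). The direct difference between RPA1 shRNA and HSF1 shRNA was 0.51 ± 0.09 (adjusted p = 0.00263).

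Under HSF1 shRNA 2 of the 9 genes rose against the control, Perp and Eda2r, and 0 fell (limma; at an unadjusted p under 0.05, 6 were higher and 0 lower), where 9.89% of all genes were called higher and 6.21% lower. In 6 of the 9 every HSF1 shRNA array lay above every control array, against 23.9% of all genes. The other 4 of those 6, Tnfrsf10b, Apaf1, Aen and Phlda3, stood at 0.14 to 0.20 with 95% intervals above 0 and did not pass the adjustment over all genes. The median over the 9 genes was 0.17, against 0.04 over all genes. The 2 comparisons with the control share its 3 arrays, so their values stand side by side here and are not independent. The count of 2 was 1 without HSF1 shRNA array 1, control array 1 or control array 3, and 4 without RPA1 shRNA array 3.

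The knockdowns were also compared directly. RPA1 shRNA exceeded HSF1 shRNA in 7 of the 9 genes and was lower in 0, where 9.71% of all genes were called higher in that comparison and 14.7% lower. In these 7 genes the RPA1 shRNA arrays all lay above the HSF1 shRNA arrays, against 14.1% of all genes. The 2 genes without a call were Bbc3 and Apaf1. The median over the 9 genes was 0.39, against -0.02 over all genes. The smallest p that an exact two-sided permutation test allows for this design is 0.1, so every call rests on the variance model of limma.

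**Figure D2:**
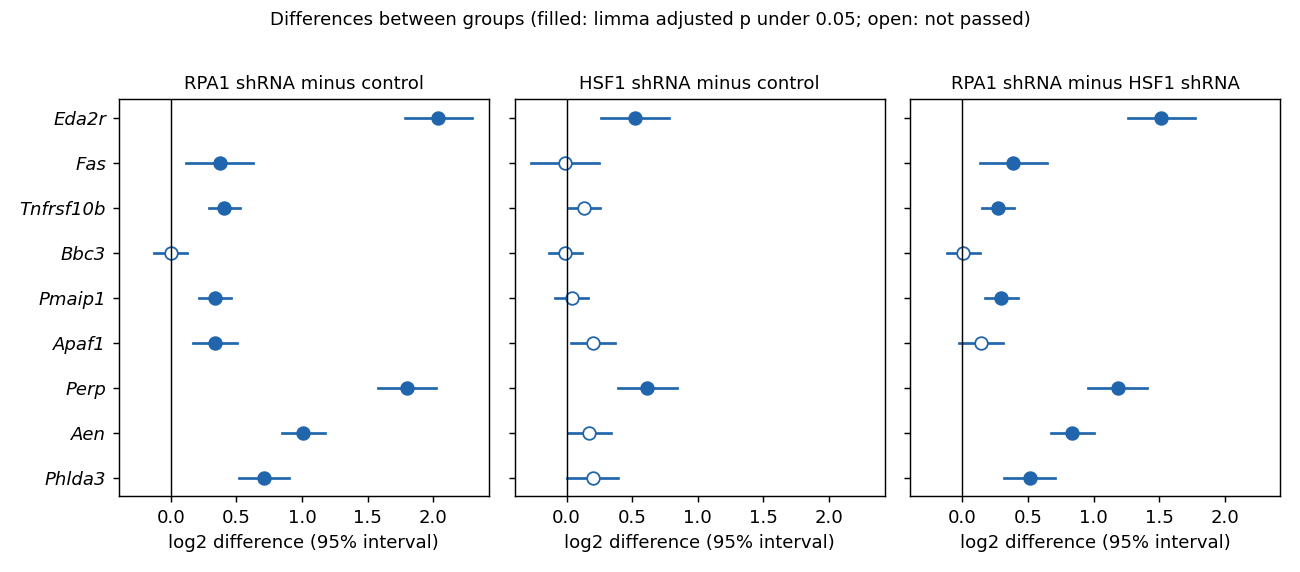
Log2 difference of each measured gene with its 95% interval for RPA1 shRNA minus control, HSF1 shRNA minus control and RPA1 shRNA minus HSF1 shRNA (horizontal axis), with filled points for a limma adjusted p under 0.05. There are 8, 2 and 7 filled points in the panels, and Bbc3 is open in each.

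The RPA1 shRNA arrays were not alike, at these genes or over all genes. Over all tested genes the mean correlation with the other arrays of the group was 0.9943 for array 3, 0.9965 for array 1 and 0.9959 for array 2. Array 3 was the lowest of its group for 6 of the 9 genes, array 1 for 3 (Tnfrsf10b, Perp and Aen) and array 2 for 0. The share of all genes lowest on array 3 was not counted, so the 6 are not a trait particular to these genes. For Apaf1 the difference of array 3 from the control mean was 0.16, which is 0.366 times the mean difference of arrays 1 and 2. The same ratio was 0.386 for Fas, 0.646 for Phlda3, 0.689 for Pmaip1 and 0.818 for Eda2r. It was 0.918 for Tnfrsf10b, 1.12 for Aen and 1.08 for Perp, so the pattern was not shared by all the genes. The knocked-down gene Rpa1 itself read 9.40 on array 3, between its values on arrays 1 and 2. The part of this array in the results was measured by leaving it out: without it 8 genes still rose over the control and 8 exceeded HSF1 shRNA. Calls over all genes, in both directions, grew as well. They went from 5998 to 7245 against the control and from 4863 to 6539 against HSF1 shRNA.

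The regulators of p53 were read from a list of 13 genes, of which 12 were tested (the p53 gene itself is not analysed here). Under RPA1 shRNA 5 rose and 1 fell, with a median of 0.15, where 15.4% of all genes were called higher and 14.7% lower. Mdm2, which encodes the ubiquitin ligase that degrades p53 and is itself a p53 target, read 12.45, 12.49 and 12.09 in the RPA1 shRNA arrays, 11.07, 11.03 and 11.09 in the HSF1 shRNA arrays and 10.69, 10.59 and 10.56 in the control arrays. The groups did not overlap and stood in the same order as for Eda2r and Perp. Mdm2 rose by 1.73 ± 0.10 under RPA1 shRNA (limma adjusted p = 4.71e-06) and by 0.45 ± 0.10 under HSF1 shRNA (adjusted p = 0.0118; 0.0509 without control array 3). The phosphatase gene Ppm1d, a feedback inhibitor of p53, rose by 0.75 ± 0.10 (adjusted p = 0.000502) and Mdm4, which encodes a p53 inhibitor related to MDM2, by 0.51 ± 0.09 (adjusted p = 0.00218) under RPA1 shRNA.

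Under HSF1 shRNA limma called 9.89% of all genes higher and 6.21% lower. Of the 12 regulators 2 rose and 0 fell, and 1 was lower at an unadjusted p under 0.05. Besides Mdm2 the gene that rose was Atm, a kinase of the DNA damage response, at 0.40 ± 0.07 (limma adjusted p = 0.00503). Mdm4 read 10.60, 10.61 and 10.36 in the RPA1 shRNA arrays, 9.88, 9.79 and 9.59 in the HSF1 shRNA arrays and 10.06, 9.92 and 10.04 in the control arrays. It was 0.77 ± 0.09 higher under RPA1 shRNA than under HSF1 shRNA (adjusted p = 0.000529). Cdkn2a, whose product ARF restrains MDM2, read 10.18, 10.33 and 10.28 in the RPA1 shRNA arrays, 10.49, 10.47 and 10.32 in the HSF1 shRNA arrays and 10.53, 10.69 and 10.49 in the control arrays, and fell under RPA1 shRNA by 0.31 ± 0.07 on the log2 scale (adjusted p = 0.0101).

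Genes listed as p53 targets of arrest, repair and feedback were read next, and the response of each to p53 in these cells was not tested. Of 17 measured genes out of 19 listed, 11 rose and 2 fell under RPA1 shRNA, with a median of 0.54 and a range from -1.22 to 1.60. Over all genes 15.4% were called higher and 14.7% lower, so the 2 falls are near the share of all genes. Trp53inp1, a stress-response gene, rose by 1.60 ± 0.32 (limma adjusted p = 0.00403), the reductase gene Dcxr by 1.56 ± 0.12 (adjusted p = 2.45e-05) and Btg2, an inhibitor of proliferation, by 1.40 ± 0.06 (adjusted p = 2.31e-06). Trp53inp1 read 11.77, 11.88 and 10.39 in the RPA1 shRNA arrays, so array 3 lay far below the others, against 9.96, 9.89 and 9.82 in the HSF1 shRNA arrays and 9.83, 9.75 and 9.66 in the control arrays. The 2 genes that fell were Sesn1, which encodes a stress-induced regulator of growth signalling (-1.22 ± 0.11, adjusted p = 4.68e-05), and the repair gene Ddb2 (-0.50 ± 0.12, adjusted p = 0.0123, but 0.0536 without control array 3).

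Under HSF1 shRNA 4 of these 17 genes rose and 2 fell, with a median of 0.03, where 9.89% of all genes were called higher and 6.21% lower. Sesn1 and Ddb2 fell here as well, Sesn1 by 0.63 ± 0.11 on the log2 scale (limma adjusted p = 0.00446), and Ddb2 by 0.58 ± 0.12 (adjusted p = 0.0114; 0.0522 without control array 3). The kinase gene Plk3 rose by 0.57 ± 0.11 (adjusted p = 0.00866). In the direct comparison 9.71% of all genes were called higher under RPA1 shRNA than under HSF1 shRNA and 14.7% lower. RPA1 shRNA exceeded HSF1 shRNA in 9 of the 17 and was lower in 1, Sesn1 (-0.59 ± 0.11, limma adjusted p = 0.00418). The largest of these differences were those of Dcxr (1.52 ± 0.12, adjusted p = 8.7e-05), Trp53inp1 (1.46 ± 0.32, adjusted p = 0.00914) and Btg2 (1.40 ± 0.06, adjusted p = 1.97e-05).

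A further 4 genes that p53 is known to induce and that act in cell death were listed beside the 10. Over all genes 15.4% were called higher under RPA1 shRNA, 9.89% under HSF1 shRNA and 9.71% for RPA1 shRNA against HSF1 shRNA. Steap3, a ferrireductase gene, read 10.62, 10.84 and 10.07 in the RPA1 shRNA arrays, 9.20, 9.19 and 9.27 in the HSF1 shRNA arrays and 8.78, 8.84 and 8.49 in the control arrays. It rose by 1.81 ± 0.17 under RPA1 shRNA (limma adjusted p = 6.1e-05). Pidd1, which encodes a death domain protein that activates caspase 2, rose by 0.94 ± 0.16 (adjusted p = 0.00155) and Ei24 by 0.75 ± 0.12 (adjusted p = 0.00133), while Siva1 read 0.13 above the control and did not pass (adjusted p = 0.383). Under HSF1 shRNA 0 of the 4 passed limma's threshold, a count near the share of all genes for a list of this size. Of the 4, 1 had an unadjusted p under 0.05, Steap3 at 0.52 (limma adjusted p = 0.0697), a value that passed in 6 of 19 alternatives. RPA1 shRNA exceeded HSF1 shRNA at Steap3 (1.29 ± 0.17, limma adjusted p = 0.000814), Pidd1 (0.88 ± 0.16, adjusted p = 0.00349) and Ei24 (0.76 ± 0.12, adjusted p = 0.00202).

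**Figure D3:**
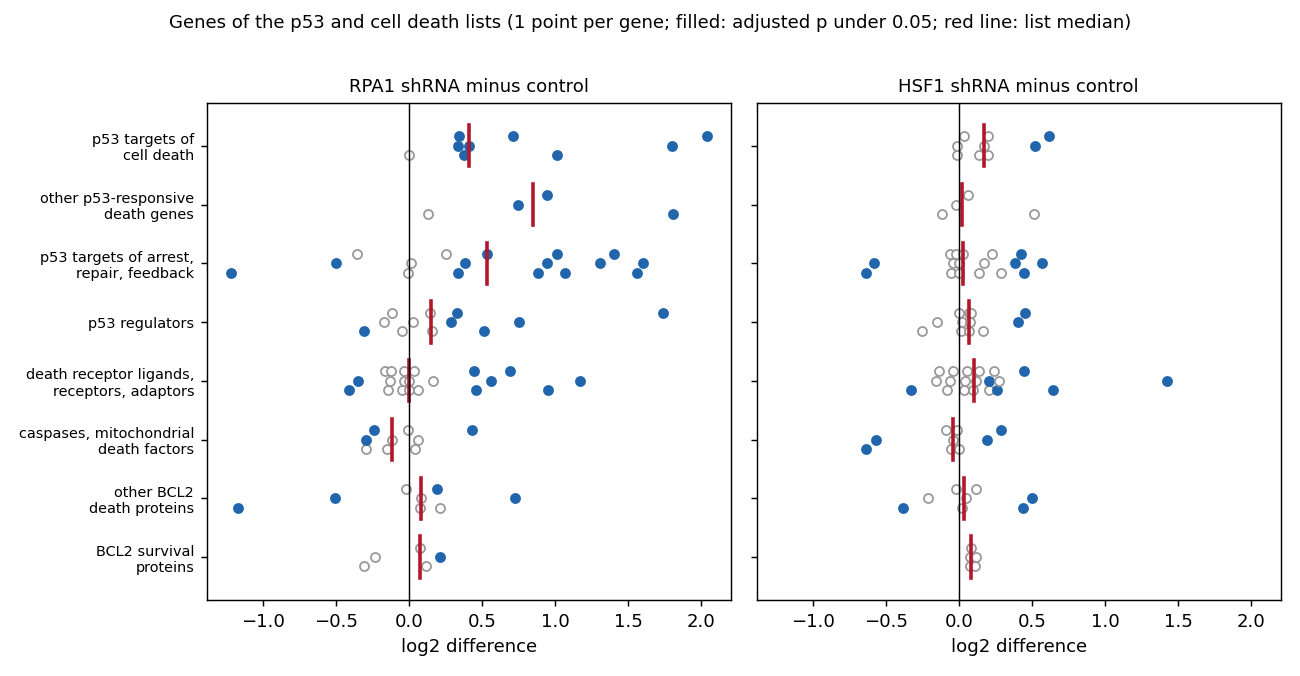
Log2 difference of every measured gene of 8 lists (rows) for RPA1 shRNA minus control and HSF1 shRNA minus control (horizontal axis), with filled points for a limma adjusted p under 0.05 and a red line at each list's median. Under RPA1 shRNA the medians of the death targets (0.41), the other death genes (0.84) and the arrest targets (0.54) lie right of 0, that of the death receptor machinery (0.0007) lies almost on 0 and that of the caspases (-0.12) lies left of it.

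Downstream of the p53 targets lie the caspases and mitochondrial death factors. Of 9 measured genes out of 11 listed 1 rose and 2 fell under RPA1 shRNA, with a median of -0.12, counts near what the shares over all genes (15.4% higher, 14.7% lower) would give for a list of this size. Cycs, the cytochrome c gene whose product binds APAF1, rose by 0.43 ± 0.05 (limma adjusted p = 0.000344). The caspase inhibitor gene Xiap fell by 0.29 ± 0.06 (adjusted p = 0.00338) and the mitochondrial protease gene Htra2 by 0.24 ± 0.07 (adjusted p = 0.0262). The call for Htra2 was lost when RPA1 shRNA array 1 or 2 or any 1 control array was left out, with an adjusted p of 0.0618 to 0.0954. Under HSF1 shRNA 2 rose and 2 fell, where 9.89% of all genes were called higher and 6.21% lower. The caspase genes Casp2 (-0.63 ± 0.10, limma adjusted p = 0.00326) and Casp6 (-0.56 ± 0.05, adjusted p = 0.00029) were lower. The mitochondrial flavoprotein gene Aifm1 (0.29 ± 0.04, adjusted p = 0.00249) and Cycs (0.19 ± 0.05, adjusted p = 0.04) were higher. The call for Cycs was lost in 12 of 19 alternatives, among them the omission of any 1 HSF1 shRNA or control array (adjusted p of 0.0527 to 0.131). RPA1 shRNA exceeded HSF1 shRNA at Casp6 by 0.44 ± 0.05 (adjusted p = 0.000607).

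Ligands, further receptors and adaptors of the death receptor pathway were tested as 20 of 21 listed genes, of which 6 rose and 2 fell under RPA1 shRNA and 5 rose and 1 fell under HSF1 shRNA (3 and 0 without control array 3), with medians of 0.0007 under RPA1 shRNA and 0.11 under HSF1 shRNA. Over all genes 15.4% were called higher and 14.7% lower under RPA1 shRNA, and 9.89% and 6.21% under HSF1 shRNA. The falls in the list do not exceed those shares. In the direct comparison 3 of the 20 genes were higher and 6 lower under RPA1 shRNA than under HSF1 shRNA, with a median of -0.08. Over all genes 9.71% were called higher there and 14.7% lower, and of the p53 death targets 7 were higher and 0 lower. The 9 calls among the 20 genes became 4 higher and 2 lower without RPA1 shRNA array 1, 3 and 3 without RPA1 shRNA array 2 or HSF1 shRNA array 3, and 3 and 2 without HSF1 shRNA array 1. The neurotrophin receptor gene Ngfr rose by 0.95 ± 0.13 under RPA1 shRNA (limma adjusted p = 0.000617), and Edaradd, which encodes an adaptor of the ectodysplasin receptor EDAR, by 0.69 ± 0.06 (adjusted p = 5.56e-05). The ligand genes of the receptors described above passed the test in none of the 3 comparisons. Fasl averaged 6.51 under RPA1 shRNA, 6.55 under HSF1 shRNA and 6.51 in the control. Tnfsf10, the TRAIL gene, averaged 6.15 under RPA1 shRNA, 6.21 under HSF1 shRNA and 6.11 in the control. Eda, the ectodysplasin gene, averaged 7.10 under RPA1 shRNA, 7.18 under HSF1 shRNA and 7.14 in the control. These ligand genes were dim: 20.31% of all genes had a lower mean than Fasl, 15.23% than Tnfsf10 and 31.34% than Eda. If they were expressed at all was not tested. Fadd, the adaptor that recruits caspase 8 to Fas, read 9.27, 9.39 and 9.11 in the RPA1 shRNA arrays, 8.71, 8.59 and 8.61 in the HSF1 shRNA arrays and 8.67, 8.76 and 8.66 in the control arrays, and was 0.62 ± 0.07 higher under RPA1 shRNA than under HSF1 shRNA (limma adjusted p = 0.000486). Tnfrsf23, which encodes a mouse decoy receptor for TRAIL, rose by 1.17 ± 0.14 under RPA1 shRNA (adjusted p = 0.00029) and by 1.42 ± 0.14 under HSF1 shRNA (adjusted p = 0.000352). Tnfrsf22, a related decoy receptor gene, rose by 0.46 ± 0.12 under RPA1 shRNA (adjusted p = 0.0159; 0.0529 without control array 2 and 0.0506 without control array 3) and by 0.65 ± 0.12 under HSF1 shRNA (adjusted p = 0.00588). RPA1 shRNA minus HSF1 shRNA was -0.25 ± 0.14 at Tnfrsf23 (adjusted p = 0.255) and -0.19 ± 0.12 at Tnfrsf22 (adjusted p = 0.289), and neither passed. Cflar, which encodes the caspase 8 inhibitor FLIP, rose under HSF1 shRNA (0.45 ± 0.08, adjusted p = 0.00429) and stood at 0.17 under RPA1 shRNA (adjusted p = 0.137), and the knockdowns differed by -0.28 (adjusted p = 0.0237). That difference did not pass when RPA1 shRNA array 1 (adjusted p = 0.0895) or HSF1 shRNA array 1 (0.082) or 2 (0.0632) was omitted.

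Markers of cell types were read in the same groups. Over all genes 15.4% were called higher and 14.7% lower under RPA1 shRNA. The shares were 9.89% and 6.21% under HSF1 shRNA, and 9.71% and 14.7% for RPA1 shRNA against HSF1 shRNA. In a list of 5 or 6 genes 1 call does not set the list apart. Of 10 fibroblast markers 6 fell and 0 rose under RPA1 shRNA (limma; 3 were higher at an unadjusted p under 0.05), and 4 fell and 1 rose under HSF1 shRNA, with RPA1 shRNA lower than HSF1 shRNA in 6 and higher in 0. The mean log2 signal over the list was 11.12 to 11.36 in the RPA1 shRNA arrays, 11.57 to 11.66 in the HSF1 shRNA arrays and 11.66 to 11.70 in the control arrays. The growth factor receptor gene Pdgfra fell by 1.70 ± 0.07 under RPA1 shRNA (limma adjusted p = 1.5e-06) and by 0.90 ± 0.07 under HSF1 shRNA (adjusted p = 0.000111). Its relative Pdgfrb fell by 1.06 ± 0.08 under RPA1 shRNA (adjusted p = 2.65e-05) and stood at -0.20 under HSF1 shRNA (adjusted p = 0.147). The collagen gene Col1a2 fell by 1.05 ± 0.12 under RPA1 shRNA (adjusted p = 0.000218) and by 0.51 ± 0.12 under HSF1 shRNA (adjusted p = 0.0209, but 0.064 to 0.0716 when HSF1 shRNA array 2 or 3 or any 1 control array was omitted). S100a4, a calcium-binding protein gene, rose by 1.16 ± 0.18 under HSF1 shRNA (adjusted p = 0.00267) and stood at 0.45 under RPA1 shRNA (adjusted p = 0.0898). The 5 fibroblast calls under HSF1 shRNA became 2 without control array 1 and 3 without HSF1 shRNA array 2 or 3 or control array 2 or 3.

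Of 6 markers of macrophages and other blood cells 3 rose under RPA1 shRNA and 2 under HSF1 shRNA, with list means of 7.12 to 7.18 in the RPA1 shRNA arrays, 6.89 to 6.90 in the HSF1 shRNA arrays and 6.53 to 6.67 in the control arrays. The lysosomal gene Cd68 rose by 2.06 ± 0.17 under RPA1 shRNA (limma adjusted p = 2.82e-05). Cd68 alone was called between the knockdowns, 1.58 ± 0.17 higher under RPA1 shRNA than under HSF1 shRNA (limma adjusted p = 0.00029). The other 5 markers stood between -0.13 and 0.09 there and did not pass, so the step in list mean between the knockdowns rests on Cd68. The lysozyme gene Lyz2 rose by 0.52 ± 0.07 under RPA1 shRNA (adjusted p = 0.000331) and by 0.50 ± 0.07 under HSF1 shRNA (adjusted p = 0.00117). Csf1r, a macrophage growth factor receptor gene, rose by 0.35 ± 0.07 under RPA1 shRNA (adjusted p = 0.00464) and by 0.27 ± 0.07 under HSF1 shRNA (adjusted p = 0.0319, a call lost without any 1 HSF1 shRNA array, control array 1 or control array 2, at 0.071 to 0.109). The pan-leukocyte gene Ptprc read 6.04 to 6.18 in the RPA1 shRNA arrays, 6.05 to 6.14 in the HSF1 shRNA arrays and 5.90 to 6.05 in the control arrays.

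Of 6 epithelial markers 0 passed limma's threshold under RPA1 shRNA, with 0 at an unadjusted p under 0.05, and 0 passed under HSF1 shRNA, with 5 higher at an unadjusted p under 0.05. Their list means were 7.91 to 8.14 in the RPA1 shRNA arrays, 8.22 to 8.27 in the HSF1 shRNA arrays and 8.00 to 8.06 in the control arrays. RPA1 shRNA was lower than HSF1 shRNA at 3 of them, the keratin gene Krt19 (-0.42 ± 0.12, limma adjusted p = 0.0317) and the adhesion genes Epcam (-0.27 ± 0.07, adjusted p = 0.0173) and Cdh1 (-0.22 ± 0.05, adjusted p = 0.0167). That count became 1 when array 2 of RPA1 shRNA was omitted, and likewise for array 1 or 2 of HSF1 shRNA. Among 5 muscle markers the filament gene Des alone was called, at 0.63 ± 0.09 under RPA1 shRNA (adjusted p = 0.000792) and 0.50 ± 0.09 under HSF1 shRNA (adjusted p = 0.00646). Among 5 endothelial markers Pecam1 alone was called, at 0.17 ± 0.05 under RPA1 shRNA (adjusted p = 0.0314) and 0.20 ± 0.05 under HSF1 shRNA (adjusted p = 0.03), and each of these calls was lost in 8 of 18 alternatives, among them the omission of control array 2 or 3, of RPA1 shRNA array 1 or 2 for the first call and of HSF1 shRNA array 2 or 3 for the other. The part of these shifts in the p53 target results was not tested, and in RNA from a whole culture fewer cells of a type and less RNA per cell cannot be told apart.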

How the data were processed

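RNA of 9 samples was hybridised to Affymetrix Mouse Gene 1.0 ST arrays. The deposited values are log2 signals, made by the authors with RMA in Partek 6.5, per the submitters' processing notes; the log2 scale was inferred from the range of the values. Genome build and scan batches are not given in the sources used here, and no measure of background came with the table. Of 35557 rows, 21789 carried 1 gene symbol in the platform annotation, 1621 carried several and 12147 were not listed. The row with the highest mean stood for a gene, which gave 19938 genes without a filter on dim ones. R 4.3.3 with limma 3.58.1 fitted 1 mean per group to all 9 arrays (6 residual and 3.51 prior degrees of freedom), with empirical Bayes moderation and two-sided tests. Benjamini-Hochberg adjustment ran over all genes of a contrast, and an adjusted p under 0.05 was a call. Differences are given ± the limma standard error. On simulated data for RPA1 shRNA minus control (19938 genes, 50 changed at each fold) the fit found 42% of genes changed 1.25-fold and 92% of those changed 1.5-fold. The simulation changed 200 genes, whereas 5998 were called in the data for that comparison, so its shares need not hold there. The number of arrays limits the precision.

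The genes described, the other lists and the tests were chosen with earlier results of these data known. All measured members were named, together with the 3 called genes of the largest difference from each other list and contrast, and Mdm2, Mdm4, Cdkn2a and Rpa1 by name. Alternatives were 3 scalings over the tested genes, a filter on dim genes, a mean-variance trend, an unmoderated test, array weights, only the 6 arrays compared, the replicate number as a block, every row as its own unit, and leaving out each array. Promoter sequences are RefSeq's (GRCm38.p6). Hsf1, Bax, Trp53, Cdkn1a, Gdf15, Ripk1 and 2 further listed genes are not analysed here.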

Additional observations from a re-analysis of the deposited data

How the results depend on the processing

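Across 19 alternatives the members called under RPA1 shRNA against the control numbered 6 to 8 (6 of the 6 tested when only genes above the median gene were kept), and those higher under RPA1 shRNA than under HSF1 shRNA 5 to 8. Under HSF1 shRNA against the control the count of 2 became 1 among genes above the median gene and with the unmoderated test, and 4 with array weights and with only the 6 arrays compared. With 1 array left out it ranged from 1 to 4, and the cause was not tested. Of 27 member differences 21 kept their side of the threshold throughout, and 0 called values changed sign. The same-numbered arrays did not deviate together (r from -0.159 to 0.093 over 9 pairs, 4 of 9 arrays closest to an array of their own number). With the replicate block the counts were 8, 2 and 7, as without it. Over all genes, array weights gave 9065 calls against 5998 for RPA1 shRNA minus control, 5313 against 3210 for HSF1 shRNA minus control and 7926 against 4863 for RPA1 shRNA minus HSF1 shRNA. For HSF1 shRNA minus control the calls were 2041 without HSF1 shRNA array 3, 2023 without control array 1 and 1953 without control array 3, and for RPA1 shRNA minus HSF1 shRNA 3228 without RPA1 shRNA array 1. Of the calls for HSF1 shRNA minus control 61.4% were higher, against 48.1% with median scaling and 49.4% with cyclic loess. For RPA1 shRNA minus HSF1 shRNA the share was 39.8%, against 52.4% with median scaling, while the members' counts were 2 and 7 with each scaling. No measure of background came with the table, so the folds of dim genes such as Bbc3, Pmaip1 and Eda2r, whose means lay below that of the median gene, may be too small.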

Other observations

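The BCL2 family genes that are not among the p53 death targets moved in both directions. Of 8 further death-promoting members 2 rose and 2 fell under RPA1 shRNA, and 2 rose and 1 fell under HSF1 shRNA. Over all genes 15.4% were called higher and 14.7% lower under RPA1 shRNA, and 9.89% higher and 6.21% lower under HSF1 shRNA, so with 8 genes these counts do not set the family apart. Bmf, the gene of a BH3-only protein, read 8.79, 8.90 and 8.83 in the RPA1 shRNA arrays, 9.63, 9.67 and 9.58 in the HSF1 shRNA arrays and 9.97, 10.18 and 9.88 in the control arrays. It fell by 1.17 ± 0.07 on the log2 scale under RPA1 shRNA (limma adjusted p = 8.8e-06) and by 0.38 ± 0.07 under HSF1 shRNA (adjusted p = 0.00796), so its groups were ordered opposite to those of Eda2r and Perp. Bcl2l11, the BIM gene, fell by 0.51 ± 0.08 under RPA1 shRNA (adjusted p = 0.00116). Bid, whose product links death receptors to mitochondria, rose by 0.72 ± 0.07 under RPA1 shRNA (limma adjusted p = 5.92e-05) and by 0.50 ± 0.07 under HSF1 shRNA (adjusted p = 0.00137). Bak1, a pore-forming member, rose by 0.44 ± 0.06 under HSF1 shRNA (adjusted p = 0.0015). Under RPA1 shRNA Bak1 rose by 0.19 ± 0.06 (adjusted p = 0.0403), a call lost in 10 of 19 alternatives. RPA1 shRNA minus HSF1 shRNA was -0.25 ± 0.06 at Bak1 (adjusted p = 0.0141, lost in 3 of 19).

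Of 5 survival members 1 rose and 0 fell under RPA1 shRNA: Mcl1, by 0.21 ± 0.05 (limma adjusted p = 0.0122). At an unadjusted limma p under 0.05, 2 were lower there, Bcl2 (-0.31, adjusted p = 0.0551) and Bcl2l1 (-0.23, adjusted p = 0.101). Over all genes 15.4% were called higher and 14.7% lower under RPA1 shRNA. The shares were 9.89% and 6.21% under HSF1 shRNA, and 9.71% and 14.7% for RPA1 shRNA against HSF1 shRNA. In a list of 5 genes 1 call does not set the list apart. Under HSF1 shRNA 0 of the 5 passed limma's adjusted threshold, and 1, Mcl1, had an unadjusted p under 0.05. Bcl2 and Bcl2l1 were lower under RPA1 shRNA than under HSF1 shRNA, with log2 differences of -0.38 ± 0.11 (adjusted p = 0.0267) and -0.35 ± 0.10 (adjusted p = 0.0273). Both of those calls were lost without any 1 of RPA1 shRNA arrays 1 and 2 and the 3 HSF1 shRNA arrays, with an adjusted p of 0.0538 to 0.09 for Bcl2 and 0.0656 to 0.0857 for Bcl2l1.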
